A study of Mus musculus with 8 samples.

Results

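The genes described here are 39 antioxidant genes of the mouse liver: the NRF2 regulator and its targets, the glutathione and thioredoxin systems, the peroxidases, and the superoxide dismutases with catalase. They were chosen by gene symbol from a table of 19642 genes, and all 39 symbols were found. Liver RNA came from male C57BL6 mice on chow (CD), with 4 WT and 4 N-LKO livers and 1 library for each. In N-LKO mice a loxP-flanked Nus1 allele, which encodes NgBR, was removed by Cre recombinase under the albumin promoter, which is active in hepatocytes. Whether the WT mice carried the loxP-flanked allele or Cre is not given in the sources used here. For the length of the diet the sample titles give 8 weeks and the treatment entries 16. The study's legend for gene expression in chow-fed livers also gives 8 weeks.

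NRF2, encoded by Nfe2l2, is a transcription factor that the adaptor KEAP1 holds at a low level. When electrophiles or oxidants modify KEAP1, NRF2 accumulates, pairs with a small MAF protein and binds antioxidant response elements near the genes for NAD(P)H dehydrogenase, glutathione synthesis, thioredoxin reductase and NADPH supply. Hydrogen peroxide and lipid peroxides are removed by glutathione peroxidases, peroxiredoxins and catalase. The hepatocyte is rich in most of these enzymes and is the main site of glutathione synthesis for the body.

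Each library held 14688404 to 18585412 counts. Values per liver are counts scaled to library size (CPM, the usual per-depth unit) after edgeR's TMM scaling, and ± is the SD of 4 livers. Nus1 was at 82.0, 90.4, 90.5 and 89.7 CPM in WT livers 1 to 4 and at 33.3, 36.2, 38.7 and 38.7 CPM in N-LKO livers 1 to 4, with no overlap (log2 fold change −1.26, adjusted p = 3.06e-05, edgeR's quasi-likelihood test). All 10 hepatocyte markers were tested and 0 were called (edgeR, 0 at an unadjusted p under 0.05; 0 by DESeq2 and limma-voom), and their summed level was 89777 to 119130 CPM in WT and 91732 to 109684 CPM in N-LKO livers. No 2 libraries were alike within sampling noise.

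In N-LKO livers 1 of the antioxidant genes, Gpx3, was higher than in WT livers by the edgeR test, and 0 were lower. Calls required an adjusted p under 0.05 (Benjamini-Hochberg over 14214 tested genes), and 38 of the 39 genes could be tested. Of all tested genes, 1.04% were called, 0.823% higher and 0.218% lower. DESeq2 and limma-voom each called Gpx3 and 0 others of the 39. At an unadjusted p under 0.05, which 12.8% of all tested genes reached (6.87% higher and 5.9% lower), 2 of the 38 were higher (Gpx3 and Gpx8) and 2 were lower (Gsr and Sod3). The 4 livers of each genotype did not overlap, with N-LKO above, for Gpx3, Gpx8 and Cat, and with N-LKO below for Gsr. Across all tested genes these shares were 7.52% in all, 4.2% above and 3.32% below. The counts apart from Gpx3 were therefore close to what the whole table gives. Gpx8 passed the filter on low counts through its N-LKO livers, so its place in these counts is not independent of that filter.

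Log2 fold changes of the 38 ran from −0.64 (Mgst3) to 1.94 (Gpx3), with 18 positive and 20 negative values and a median of −0.0078, against −0.0033 for all tested genes. The 95% interval of the change lay within 1.5-fold in both directions for 30 of the 38 genes, which was so for 62.1% of all tested genes. The 8 with wider intervals or larger changes were Gpx3, Gpx7, Gpx8, Hmox1, Osgin1, G6pdx, Sod3 and Mgst3. For those 30 genes a change of 1.5-fold lay outside the interval.

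**Figure D1:**
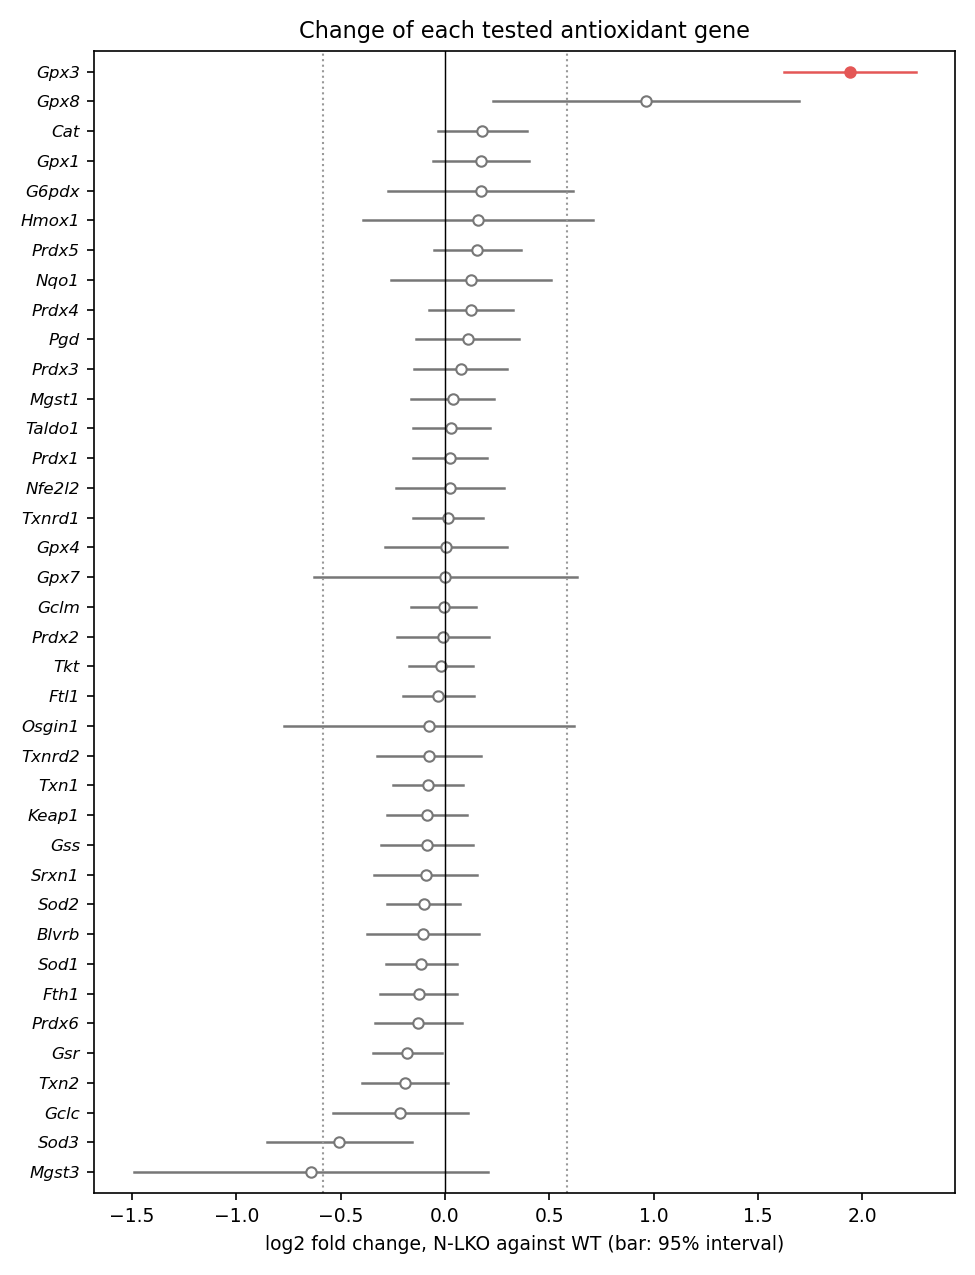
Log2 fold change of each of the 38 tested antioxidant genes, N-LKO against WT livers (x axis), with its 95% interval as a bar. The red filled point is the gene called at an adjusted p under 0.05, open points were not called, and the dotted lines mark 1.5-fold in either direction. Gpx3 stands at 1.94 with its whole interval to the right of the dotted line.

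**Figure D2:**
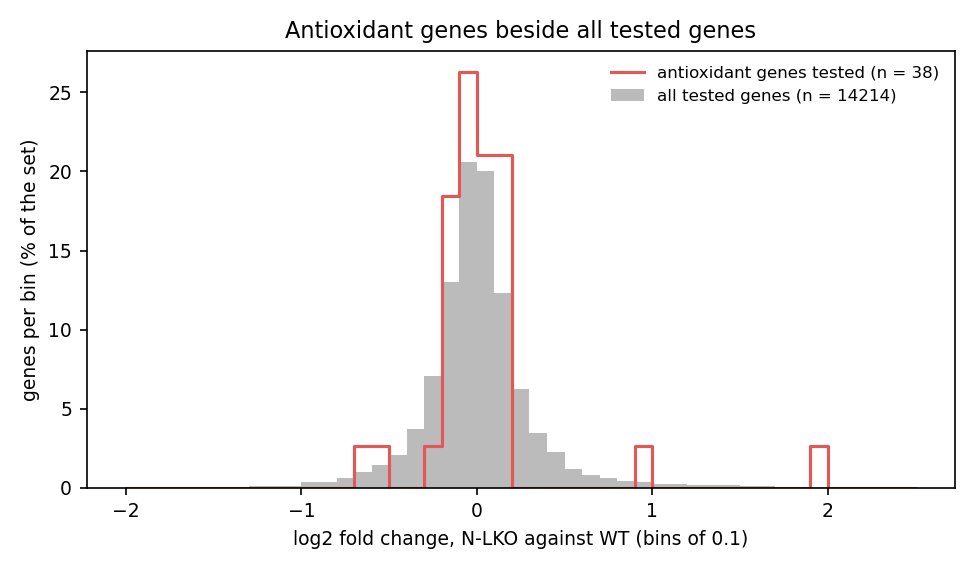
Share of genes (y axis, % of the set) in each bin of log2 fold change, N-LKO against WT livers (x axis, bins of 0.1), for the 38 tested antioxidant genes (red outline) and all 14214 tested genes (grey). Most of the outline lies over the centre of the grey distribution, and the bin farthest to the right holds Gpx3.

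Gpx3 encodes the secreted glutathione peroxidase of plasma, a selenoprotein best known as a product of the kidney tubule. The gene is at chr11:54902453-54910377, plus strand (GRCm38, ENSMUSG00000018339.11), and no other annotated gene overlaps its exons or shares a stretch of 75 bases at 95% identity. It was at 5.45, 5.69, 5.52 and 3.70 CPM in WT livers 1 to 4. In N-LKO livers 1 to 4 it was at 16.6, 20.4, 20.04 and 21.1 CPM. The lowest N-LKO liver was thus far above the highest WT liver, and the lowest WT value was that of liver 4. The means were 5.09 ± 0.933 and 19.5 ± 2.03 CPM (SD, n = 4), a fitted fold change of 3.84. On the log2 scale this was 1.94 with a standard error of 0.143 and a 95% interval of 1.63 to 2.26 (adjusted p = 0.000194, edgeR's quasi-likelihood test). By p-value Gpx3 ranked 3 among the tested genes, and by fold change 34 among the 117 genes called higher. In the 8 fits that each left out 1 liver, Gpx3 was called every time, with a log2 fold change of 1.81 to 2.01.

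The products of Gpx1, Gpx4, Gpx7 and Gpx8 reduce peroxides inside cells. Gpx1 encodes the abundant selenoenzyme of the cytosol and mitochondria, and its level was 623, 534, 633 and 676 CPM in WT livers 1 to 4 and 744, 590, 726 and 725 CPM in N-LKO livers 1 to 4. Of these, 3 N-LKO livers lay above all WT livers and liver 2 lay within their range. The means were 617 ± 59.8 and 696 ± 71.4 CPM (SD, n = 4), and the log2 fold change of 0.17 was not called (95% interval −0.056 to 0.41, edgeR adjusted p = 0.533).

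Gpx4 encodes the enzyme that reduces lipid hydroperoxides in membranes. Its own row gave 12.8, 17.01, 19.3 and 17.7 CPM in WT and 14.3, 16.3, 18.5 and 17.9 CPM in N-LKO livers, in the order 1 to 4. The ranges overlapped almost entirely, and the log2 fold change was 0.0046 (95% interval −0.29 to 0.30, edgeR adjusted p = 0.993). The count is uncertain, because the processed pseudogene Gpx4-ps2 shares a near-identical stretch with Gpx4 and its row held 15799.7 counts over the 8 livers, against 2178.9 for Gpx4. With the rows added together, an alternative chosen after the counts were seen, the level was 143 ± 13.9 CPM in WT and 131.6 ± 7.51 CPM in N-LKO livers (SD, n = 4). The sign of the change then turned, to −0.11, and it was again not called (edgeR adjusted p = 0.628).

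Gpx7 and Gpx8 encode peroxidases of the endoplasmic reticulum that carry cysteine in place of selenocysteine. Gpx8 was at 0.374, 0.563, 0.317 and 0.662 CPM in WT livers and at 0.851, 0.858, 1.33 and 0.747 CPM in N-LKO livers, again in the order 1 to 4. The groups did not overlap, with N-LKO livers above WT livers by a narrow margin. The counts behind these values were 7, 9, 5 and 12 in WT and 15, 13, 20 and 11 in N-LKO livers. Gpx8 thus passed the filter on low counts through its N-LKO livers, and its separation is not independent of that filter. It did not pass the alternative of at least 10 counts in every liver. The log2 fold change was 0.96 (standard error 0.333, 95% interval 0.23 to 1.70), which did not pass the adjusted threshold (edgeR adjusted p = 0.238) and rests on 92 counts in all 8 livers. Gpx7 gave 1.12, 0.938, 0.697 and 0.662 CPM in WT and 1.02, 0.990, 0.730 and 0.679 CPM in N-LKO livers. The groups coincided, but with 113 counts in all the interval of the log2 fold change of 0.0025 was wide (−0.63 to 0.63, edgeR adjusted p = 0.998), and its sign turned with library totals in place of TMM (−0.032).

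Gpx6, known from the olfactory epithelium, was below the filter on low counts and was not tested. It had 32 counts over the 8 livers, with 0.190 to 0.441 CPM in WT livers and up to 0.284 CPM in N-LKO livers, where 1 liver had a count of 0.

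**Figure D3:**
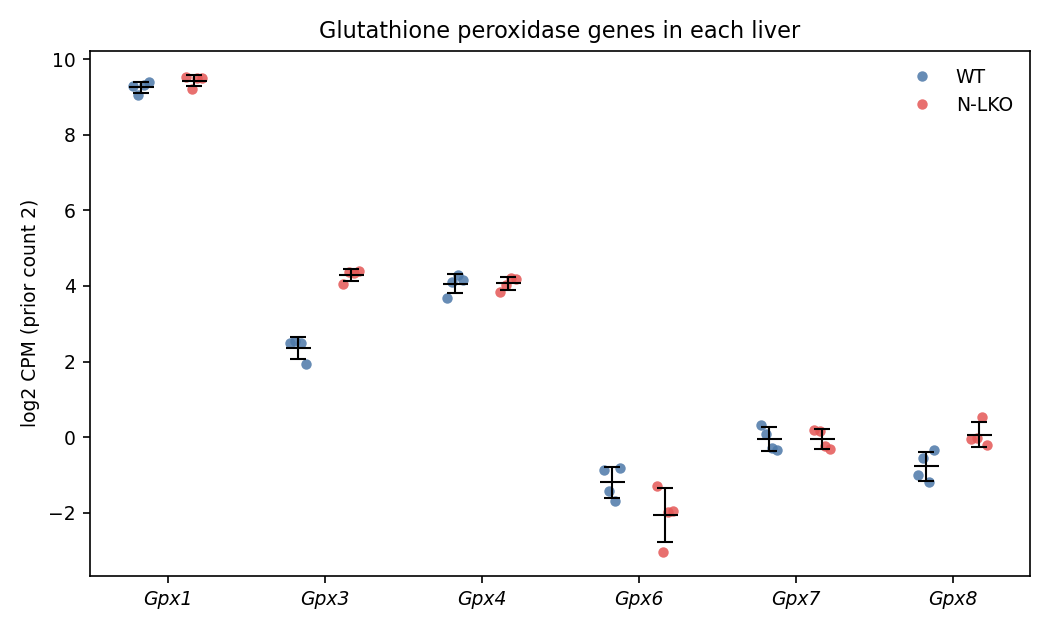
Log2 CPM (y axis, prior count of 2) of the 6 glutathione peroxidase genes in each WT (blue) and N-LKO (red) liver. Long bars are the means and short bars the SD of 4 livers, and the Gpx3 groups stand apart, with WT livers at 1.93 to 2.54 on this scale.

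Per kilobase of exon, which allows genes to be compared, the order of the family in WT livers was Gpx1 (428 ± 41.5 RPKM), Gpx4 (9.69 ± 1.61), Gpx3 (2.81 ± 0.515), Gpx7 (0.663), Gpx8 (0.457) and Gpx6 (0.239). The ranges of Gpx7 and Gpx8 overlapped, as did those of Gpx8 and Gpx6. In N-LKO livers Gpx3 was at 10.8 ± 1.12 RPKM and Gpx4 at 9.72 ± 1.10 RPKM, with overlapping ranges (9.13 to 11.6 and 8.29 to 10.7), while Gpx1 was at 483 ± 49.5 RPKM. These values of Gpx4 are those of its own row, without the counts of Gpx4-ps2, and the overlap with Gpx3 holds only for that row. With Gpx4-ps2 added, Gpx4 in N-LKO livers was at 131.6 ± 7.51 CPM, against 19.5 ± 2.03 CPM for Gpx3. As a share of the CPM of the 6 genes, Gpx3 made up 0.847%, 1.02%, 0.836% and 0.529% in WT livers 1 to 4, and 2.13%, 3.25%, 2.61% and 2.76% in N-LKO livers 1 to 4. Gpx1 made up 93.9% to 96.9% over the 8 livers. With Gpx4-ps2 added to Gpx4, Gpx3 made up 0.446% to 0.844% in WT and 1.85% to 2.78% in N-LKO livers, and Gpx1 79.1% to 83.3% over the 8 livers.

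Whether Gpx3 moved apart from its relatives was tested within each liver, as the log2 CPM of Gpx3 minus that of the other gene. Against Gpx1 the difference was −6.90 ± 0.401 in WT and −5.15 ± 0.261 in N-LKO livers (SD, n = 4), a change of 1.75. The difference from Gpx4 changed by 1.92, that from Gpx7 by 1.92 and that from Gpx8 by 1.09. In all 4 comparisons the 4 N-LKO livers lay above the 4 WT livers (exact two-sided permutation test, p = 0.0286 each, 0.0286 after Benjamini-Hochberg adjustment over the 4), which is the smallest p that 4 livers against 4 allow. The 4 tests share the same Gpx3 values, and Gpx3 was chosen with earlier results of these data known. They therefore add no support beyond the call of Gpx3 itself, and describe only the size of the gap. The comparison with Gpx8, a gene that passed the filter on low counts through its N-LKO livers, was the least secure. Its p was 0.0571 with a prior count of 0.5 (exact permutation test), and also 0.0571 in 5 of the 8 fits that left out 1 liver (WT 4 or any single N-LKO liver). In those 8 fits the change was between 0.81 (without WT 4) and 1.27 (without WT 3).

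Some marker genes of several non-hepatocyte cells were higher in the same livers as Gpx3. The marker lists were chosen with earlier results of these data known. Of all tested genes, 0.823% were called higher and 0.218% lower. In bulk RNA, more or fewer cells of a type and more or less RNA in each cell cannot be told apart. Of 10 fibroblast markers tested, 3 were called higher (Pdgfra, Lum and Col1a1), and the summed level of the list was 154 to 211 CPM in WT and 238 to 338 CPM in N-LKO livers. Of 6 cholangiocyte markers tested, 2 were called higher (Epcam and Spp1), with sums of 39.02 to 66.4 and 74.2 to 159 CPM over 9 markers. Mesothelial markers, 1 called (Wt1) of 3 tested, summed over 5 markers to 3.58 to 4.80 CPM in WT and 5.22 to 6.18 CPM in N-LKO livers. Of 5 tested markers of lipid-associated macrophages, 3 were called higher (Mmp12, Gpnmb and Spp1), with sums of 65.2 to 73.7 and 96.5 to 192.02 CPM over 7 markers. In each of these 4 lists 1 tested marker had a negative log2 fold change and was not called. It was −0.22 for fibroblasts, −0.82 for cholangiocytes, −0.37 for mesothelial cells and −0.012 for lipid-associated macrophages. The ranges of the 4 sums did not overlap, and Spp1 stands in both the cholangiocyte and the macrophage list. Without Spp1, a sum added after the data were seen, the cholangiocyte ranges overlapped (22.9 to 34.0 CPM in WT and 31.7 to 53.8 CPM in N-LKO livers), while the macrophage ranges did not (41.3 to 49.03 and 59.1 to 86.7 CPM). Limma-voom called 0 cholangiocyte, 2 fibroblast, 2 macrophage and 1 mesothelial markers higher, and DESeq2 called 3, 4, 4 and 1.

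The sums of the other lists overlapped between the genotypes. Kupffer cell markers summed to 105 to 188 CPM in WT and 97.6 to 157 CPM in N-LKO livers, with 1 of 8 called lower (Cd163). Stellate cell markers summed to 146 to 224 and 137 to 188 CPM, with 1 of 8 called lower (Ecm1), and 0 of 8 sinusoidal endothelial markers were called (edgeR, 0 at an unadjusted p under 0.05; 0 by DESeq2 and limma-voom). Lrp2 was the only listed kidney tubule marker among the 19642 genes, which did not include Umod, Slc34a1, Slc12a1, Aqp2, Slc22a6 or Kap. Lrp2 was at 0.688 to 1.27 CPM in WT and 0.528 to 1.13 CPM in N-LKO livers. The adipocyte markers Cfd and Cidea, which were too low to test, summed to 0.0625 to 0.662 CPM in WT and 0.170 to 1.02 CPM in N-LKO livers. Adipoq, Plin1, Retn and Lep were not among the 19642 genes. The part of any cell type in the rise of Gpx3 was not tested.

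**Figure D4:**
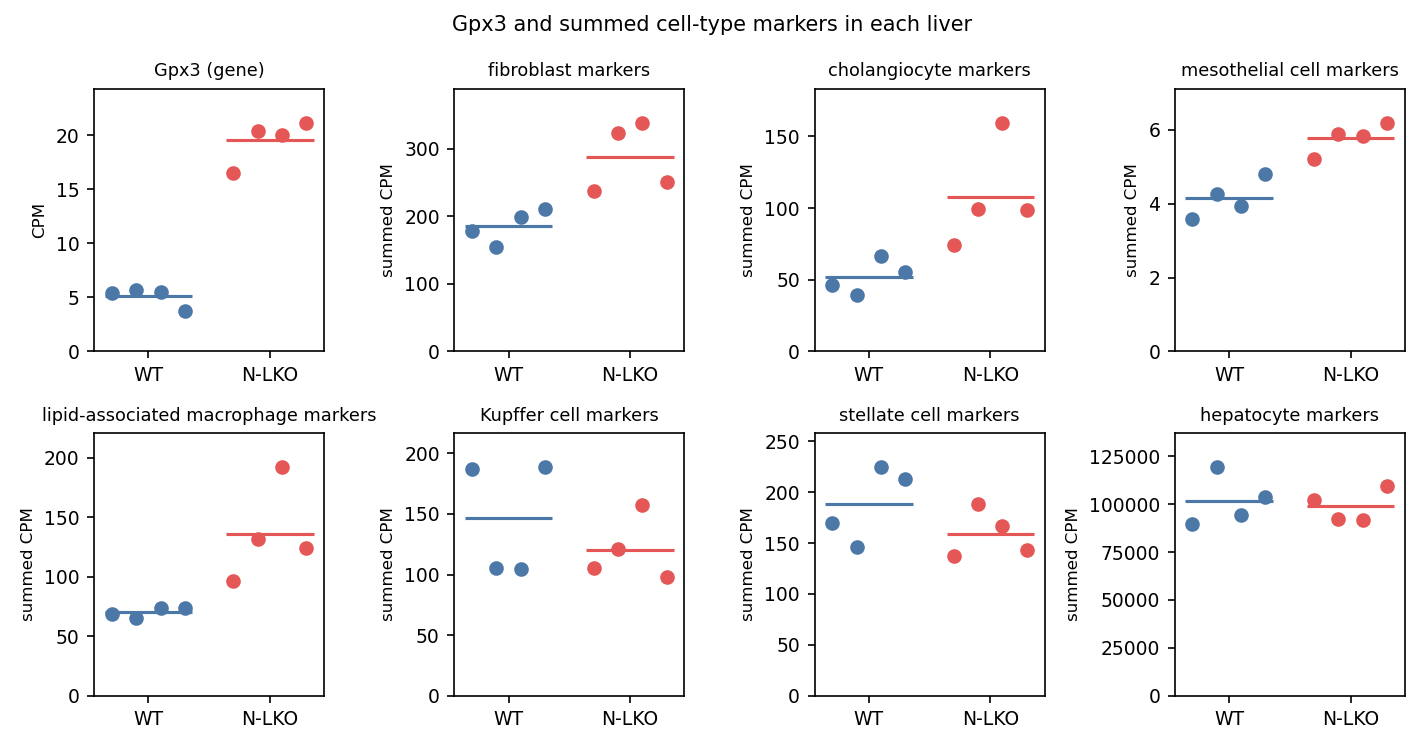
Gpx3 (CPM) and the summed CPM of 7 lists of cell-type markers in each liver (points), with the group mean as a line and each y axis starting at 0. Gpx3 and the fibroblast, cholangiocyte, mesothelial and lipid-associated macrophage sums are higher in every N-LKO liver than in every WT liver, and the Kupffer, stellate and hepatocyte sums overlap.

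Of the regulators, Nfe2l2 (NRF2) was at 56.6, 66.3, 78.2 and 67.6 CPM in WT livers 1 to 4 and at 75.4, 77.1, 59.9 and 60.8 CPM in N-LKO livers 1 to 4. Both groups spread over the same range, and the log2 fold change of 0.024 had a 95% interval of −0.23 to 0.28 (edgeR adjusted p = 0.96). Its sign was not fixed, at −0.0097 with library totals in place of TMM. Keap1, whose product holds NRF2 low, was at 29.4, 33.9, 38.0 and 32.0 CPM in WT and at 30.7, 30.6, 31.4 and 32.8 CPM in N-LKO livers. The N-LKO values fell inside the WT range (log2 fold change −0.084, 95% interval −0.28 to 0.11, edgeR adjusted p = 0.749). NRF2 is controlled mostly through its protein, which these data do not measure.

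The 5 genes listed as reporter targets of NRF2 were Nqo1, Hmox1, Srxn1, Osgin1 and Blvrb, while its targets Gclc, Gclm and Txnrd1 stand under other roles. Of the 5, 0 were called, and 0 reached an unadjusted p under 0.05 (edgeR). Srxn1, which encodes sulfiredoxin, the enzyme that restores over-oxidized peroxiredoxins, was at 67.6, 56.7, 71.9 and 59.7 CPM in WT livers 1 to 4 and at 61.6, 71.5, 54.0 and 53.0 CPM in N-LKO livers 1 to 4. The groups overlapped, with a log2 fold change of −0.091 (95% interval −0.34 to 0.16, edgeR adjusted p = 0.794). Nqo1, the quinone reductase often used as the NRF2 readout, had means of 4.83 ± 0.738 and 5.27 ± 0.990 CPM (log2 fold change 0.13, 95% interval −0.26 to 0.51). Hmox1, the heme oxygenase, had means of 7.76 ± 2.48 and 8.71 ± 2.62 CPM (0.16, −0.39 to 0.71). The interval of Hmox1 reached past a 1.5-fold rise, so a rise of that size lay within it. Osgin1, an oxidative stress-induced growth inhibitor, had means of 15.7 ± 6.18 and 14.9 ± 6.40 CPM (−0.075, −0.77 to 0.62). Blvrb, the biliverdin reductase that also occurs in red cells, had a log2 fold change of −0.11.

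To show what the promoters of these genes hold, the core of the antioxidant response element, TGACNNNGC (reverse complement GCNNNGTCA), was searched on both strands from 250 bases before to 50 bases after each start site in RefSeq promoters (GRCm38.p6). The core overlaps the site of AP-1 factors. Of the 39 genes 34 had a promoter sequence, and 9 of these (26.5%) held a core, against 16.7% of 9863 tested genes and 14% of all genes of the promoter table. The matches are printed on the strand of the gene, because they show how the central bases vary between genes.
G6pdx: GCTCAGTCA
Gclm: GCACCGTCA
Mgst1: GCACGGTCA
Nfe2l2: TGACTCCGC
Pgd: TGACATTGC
Prdx1: GCTGAGTCA
Sod1: GCGTGGTCA
Srxn1: GCTAGGTCA
Txnrd1: GCTTTGTCA
In the edgeR test 0 of these 9 genes were called and 0 reached an unadjusted p under 0.05. The NRF2 targets Nqo1, Hmox1, Osgin1, Blvrb and Gclc are not among the 9, for want of a core or of a promoter sequence. The promoter of Gpx3 held no core in this window, which was so for most of the 34 genes. Its window belongs to a start site inside the gene. The bases before the first annotated base of Gpx3 were not searched. A match is a run of letters and not a measured binding site, and no match says only that these letters are not in the window.

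The upstream windows of Gpx3, the gene that rose, and of Gclm, a known NRF2 target that stayed at its WT level, are shown beside each other, with the core in capitals. The Gpx3 window, chr11:54902604-54902771, ends where an annotated first exon begins and lies within the first intron of a longer transcript. The Gclm window, chr3:122245307-122245556, ends at the start of the gene, with the core beginning 134 bases before it. Both are on the plus strand of GRCm38.p6, from RefSeq.
Gpx3: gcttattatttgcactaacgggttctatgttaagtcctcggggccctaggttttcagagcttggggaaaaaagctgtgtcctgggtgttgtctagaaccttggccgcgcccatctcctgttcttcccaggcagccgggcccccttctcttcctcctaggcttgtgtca
Gclm: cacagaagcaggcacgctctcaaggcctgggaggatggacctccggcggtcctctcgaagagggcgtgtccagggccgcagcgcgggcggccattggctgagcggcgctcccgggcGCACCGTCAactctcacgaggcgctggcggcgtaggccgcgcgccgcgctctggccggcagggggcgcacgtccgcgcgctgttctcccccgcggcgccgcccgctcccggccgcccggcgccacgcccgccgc
The GC content was 54.2% over the bases shown for Gpx3 and 78.4% over those shown for Gclm.

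Glutathione is made by glutamate-cysteine ligase (Gclc, catalytic; Gclm, modifier) and glutathione synthetase (Gss), and its oxidized form is reduced by glutathione reductase (Gsr). Gclm was at 218, 214, 213 and 221 CPM in WT livers 1 to 4 and at 204, 209, 213 and 236 CPM in N-LKO livers 1 to 4. The WT livers lay in a narrow band within the N-LKO range (log2 fold change −0.0062, 95% interval −0.16 to 0.15, edgeR adjusted p = 0.984). Gsr was at 94.8, 89.8, 101 and 94.0 CPM in WT and at 88.7, 89.6, 79.7 and 77.3 CPM in N-LKO livers. All N-LKO livers were below the WT livers, although N-LKO liver 2 was within 1 CPM of WT liver 2. The means were 94.9 ± 4.62 and 83.8 ± 6.26 CPM (SD, n = 4), and the log2 fold change of −0.18 did not pass the adjusted threshold (95% interval −0.34 to −0.014, edgeR adjusted p = 0.351). Gclc had means of 163 ± 35.8 and 141 ± 16.2 CPM, with a log2 fold change of −0.21 (95% interval −0.54 to 0.11), and Gss a log2 fold change of −0.085. All 4 values were below 0, and 0 of the 4 were called (edgeR, 1 at an unadjusted p under 0.05, Gsr).

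Thioredoxins (Txn1 in the cytosol, Txn2 in mitochondria) pass electrons from their reductases (Txnrd1, Txnrd2) to peroxiredoxins. Txnrd1, an NRF2 target, was at 138, 131, 123 and 121 CPM in WT livers 1 to 4 and at 132.3, 142, 122 and 123 CPM in N-LKO livers 1 to 4. The groups overlapped (log2 fold change 0.014, 95% interval −0.16 to 0.18, edgeR adjusted p = 0.966), and the sign turned to −0.018 with library totals. The other 3 had log2 fold changes of −0.19 (Txn2), −0.080 (Txn1) and −0.076 (Txnrd2), and 0 of the 4 were called (edgeR, 0 at an unadjusted p under 0.05).

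The pentose phosphate pathway supplies NADPH to both systems. Taldo1, which encodes transaldolase, was at 35.4, 39.6, 43.7 and 42.6 CPM in WT and at 42.5, 38.4, 40.6 and 43.2 CPM in N-LKO livers, in the order 1 to 4. The N-LKO livers lay within the WT range except that none was as low as WT liver 1 (log2 fold change 0.031, edgeR adjusted p = 0.922; −0.0047 with library totals). G6pdx, the first enzyme of the pathway, was low, at 2.32 ± 0.243 CPM in WT and 2.62 ± 0.540 CPM in N-LKO livers (0.17, 95% interval −0.27 to 0.61). Pgd changed by 0.11 and Tkt by −0.019 on the log2 scale, and 0 of the 4 were called (edgeR, 0 at an unadjusted p under 0.05).

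Peroxiredoxins are thiol peroxidases, and 0 of the 6 genes were called (edgeR, 0 at an unadjusted p under 0.05). Prdx1 was at 531, 533, 581 and 544 CPM in WT livers 1 to 4 and at 586, 539, 513 and 591 CPM in N-LKO livers 1 to 4. The N-LKO livers spread around the WT values (log2 fold change 0.026, 95% interval −0.15 to 0.20, edgeR adjusted p = 0.933), and the value was −0.011 with library totals. The remaining 5 ran from −0.13 (Prdx6) to 0.16 (Prdx5). Prdx2, which is also abundant in red cells, was at −0.0094, while the summed erythroid markers ranged from 58.9 to 553 CPM in WT and from 58.1 to 296 CPM in N-LKO livers. The part of red cells in the values of Prdx2, Blvrb and Gpx1 was not tested.

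Superoxide dismutases turn superoxide into hydrogen peroxide, and catalase breaks hydrogen peroxide down in peroxisomes. Cat was at 1932, 1831, 2088 and 2234 CPM in WT livers 1 to 4 and at 2246, 2235, 2241 and 2436 CPM in N-LKO livers 1 to 4. The groups did not overlap, but WT liver 4 and N-LKO liver 2 were nearly equal. The means were 2021 ± 177 and 2290 ± 97.4 CPM (SD, n = 4), and the log2 fold change of 0.18 was not called (95% interval −0.032 to 0.39, edgeR adjusted p = 0.481). Sod3, the secreted dismutase, was at 9.19, 7.75, 11.7 and 10.9 CPM in WT and at 6.35, 6.40, 8.69 and 6.38 CPM in N-LKO livers. N-LKO liver 3 lay above WT liver 2, and the other 3 N-LKO livers lay below all WT livers. For Sod3 the log2 fold change was −0.51 (standard error 0.158, 95% interval −0.85 to −0.16), which did not pass the adjusted threshold (edgeR adjusted p = 0.192). Sod1 in the cytosol and Sod2 in mitochondria had log2 fold changes of −0.11 and −0.10. The count of Sod1 is uncertain, because Gm8566 shares a near-identical stretch with it and held 19461.2 counts, against 50695.6 for Sod1. With the rows added together, an alternative chosen after seeing the data, the log2 fold change of Sod1 was −0.12 (edgeR adjusted p = 0.562).

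For Gpx3 and Sod3, which both encode secreted enzymes, the log2 fold changes were thus 1.94 and −0.51. The difference between them was not tested.

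Microsomal glutathione transferases conjugate and reduce lipid products in the endoplasmic reticulum. Mgst1 was at 2619, 2426, 2635 and 2539 CPM in WT livers 1 to 4 and 2804, 2506, 2676 and 2499 CPM in N-LKO livers 1 to 4, the highest of the 39 genes also per kilobase of exon (1269 RPKM in WT and 1302 RPKM in N-LKO livers). The groups overlapped (log2 fold change 0.037, 95% interval −0.16 to 0.24, edgeR adjusted p = 0.912). Mgst3 was low, at 1.58 ± 0.713 and 1.01 ± 0.376 CPM, and its log2 fold change of −0.64 had a wide interval (−1.49 to 0.21, edgeR adjusted p = 0.536).

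Ferritin, an NRF2-responsive iron store, is built of heavy (Fth1) and light (Ftl1) chains. Fth1 was at 1149, 1243, 1162 and 1134 CPM in WT and at 1093, 996, 1062 and 1151 CPM in N-LKO livers, in the order 1 to 4. Of the N-LKO livers, 3 lay below all WT livers and liver 4 lay among them (log2 fold change −0.12, 95% interval −0.31 to 0.060, edgeR adjusted p = 0.588). Ftl1 had a log2 fold change of −0.031. Its count is uncertain, since it shares near-identical stretches with other genes of the table, among them Ftl1-ps1, which together held 84301.1 counts against 107389.9 for Ftl1.

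**Figure D5:**
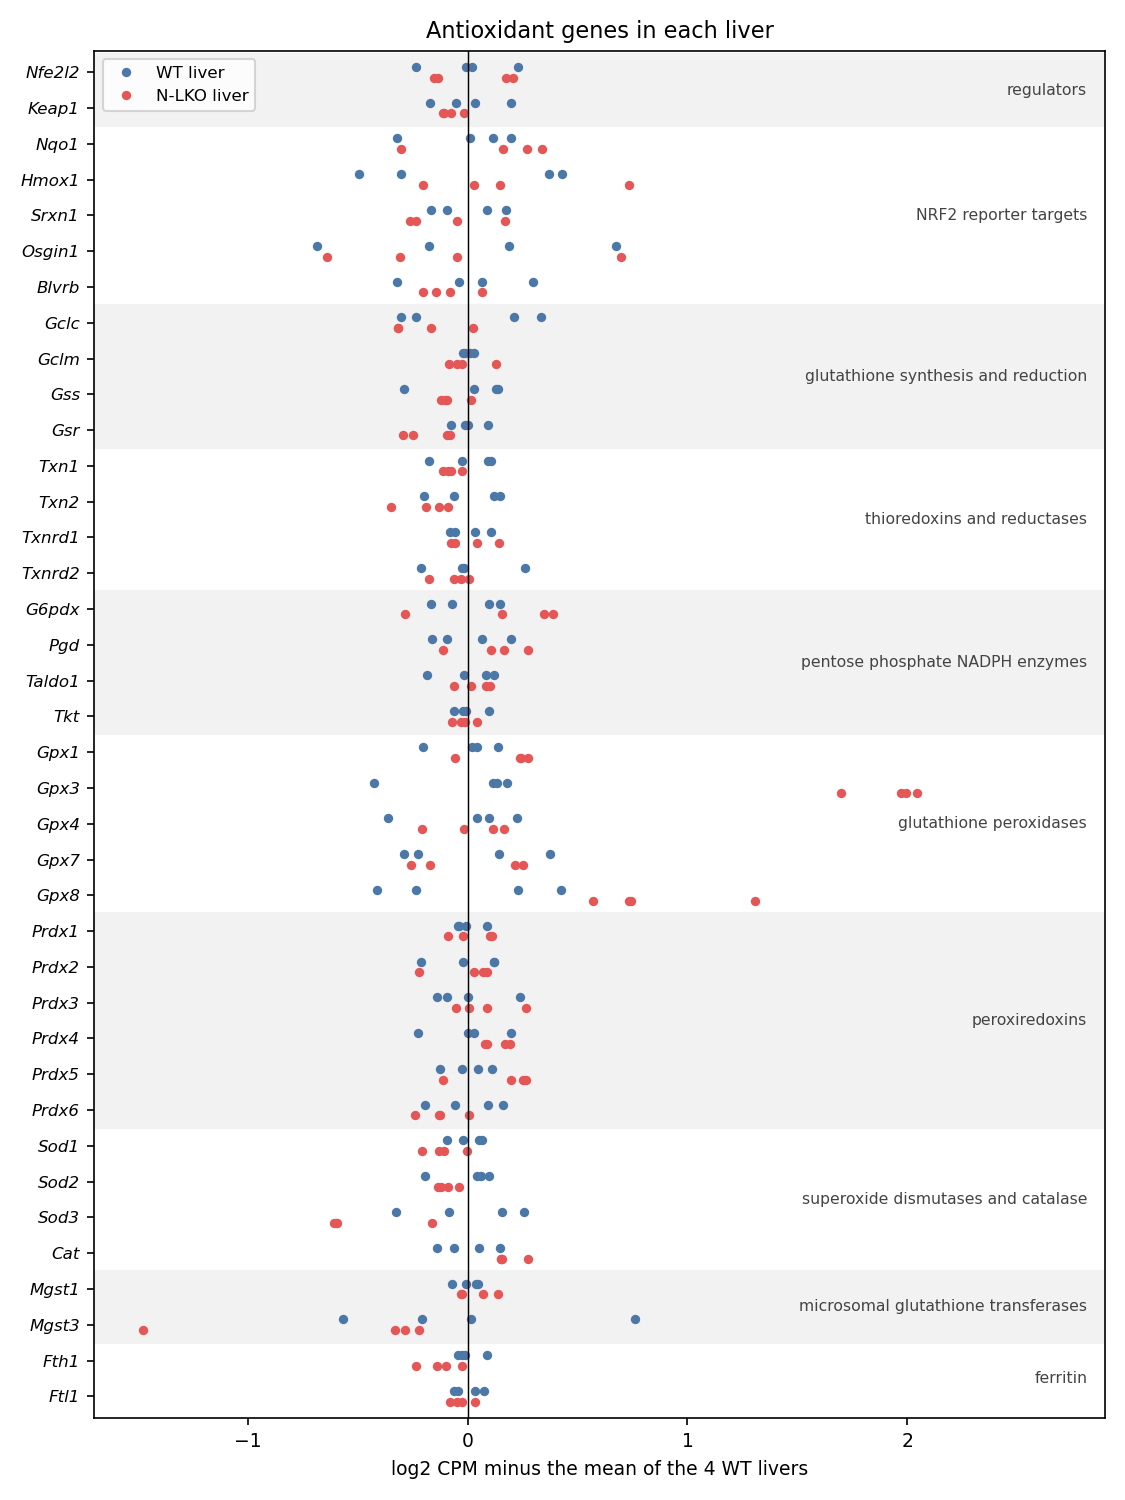
Log2 CPM of each tested antioxidant gene in each liver, minus the mean of the 4 WT livers for that gene (x axis), with the genes grouped by role. Blue points are WT and red points N-LKO livers. For Gpx3 and Gpx8 all red points lie to the right of the blue ones, with a wide gap for Gpx3, and for most other genes the colours mix.

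Pathway genes outside the 39 were read from 7 further lists, which hold 115 genes of the table, 106 of them tested. Gpx2 and Gpx5 were not among the 19642 genes. The edgeR test called 1 of the 106 higher, Selenbp2, and 0 lower, against 0.823% and 0.218% of all tested genes. At an unadjusted p under 0.05, 14 of the 106 were higher and 3 lower. Of all 14214 tested genes, 976 (6.87%) were higher and 838 (5.9%) lower at that level. The share of higher genes was thus above that of all tested genes, and the share of lower genes below it. These genes were not tested as a set. The lists on NRF2 partners and competitors (9 tested), other NRF2-responsive liver genes (20), glutathione turnover and glutaredoxins (13), other NADPH sources (11), oxidant-producing enzymes (16) and iron handling (13) had 0 calls. Their median log2 fold changes were −0.095, 0.10, −0.038, 0.093, 0.0058 and 0.072. DESeq2 called Dio1, Ero1lb and Selenbp2 higher and Maoa lower, and limma-voom called 0 of the 106.

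Selenium supply and other selenoproteins (24 tested, median 0.034) bear on Gpx3, a selenoprotein. Selenbp2 was at 15.5, 5.38, 15.2 and 12.4 CPM in WT livers 1 to 4 and at 42.0, 21.6, 67.7 and 65.9 CPM in N-LKO livers 1 to 4. All N-LKO livers were above all WT livers, with a wide spread among them (log2 fold change 2.02, standard error 0.376, edgeR adjusted p = 0.0309). Its product binds selenium but is not a selenocysteine protein, and its reads are uncertain because Selenbp1, with a log2 fold change of 0.096, is near-identical over stretches. The call was lost in limma-voom, with the library number as a block, and in 7 of the 8 fits that left out 1 liver, and was kept without N-LKO 2. Dio1, the selenoenzyme that activates thyroid hormone, was next, at 58.6 ± 15.2 and 104 ± 14.7 CPM (0.83, edgeR adjusted p = 0.058), with no overlap. Selenop, which carries selenium from the liver in plasma, was at 7548 ± 316 and 7163 ± 471 CPM (−0.076, edgeR adjusted p = 0.826).

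In the remaining lists the smallest p-values belonged to genes that were not called. Mafg, a small MAF partner of NRF2, was at 45.6 ± 6.01 CPM in WT and 36.2 ± 3.83 CPM in N-LKO livers (log2 fold change −0.33, edgeR adjusted p = 0.219), and Bach2, a competitor at the same element, had 0.46 (0.356). Among the NRF2-responsive genes Htatip2 was at 24.4 ± 3.8 and 30.9 ± 0.450 CPM without overlap (0.34, edgeR adjusted p = 0.19), and Gstm2 had 0.39 (0.315). Of the enzymes that produce oxidants, Maoa, the monoamine oxidase of the mitochondrial surface, was lower in N-LKO livers without overlap (7.74 ± 0.904 and 4.94 ± 0.967 CPM, −0.65, edgeR adjusted p = 0.0993). Ero1lb, which oxidizes protein disulfide isomerase in the endoplasmic reticulum, was at 42.6 ± 4.58 and 59.0 ± 9.84 CPM without overlap (0.47, edgeR adjusted p = 0.125). For glutaredoxin (Glrx) the log2 fold change was 0.19, for Ggt5 0.43, for Idh2 0.28, for Nnt −0.18, for Ncoa4 0.28 and for Slc11a2 0.23, with edgeR adjusted p-values from 0.322 to 0.603.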

How the data were processed

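Liver RNA was depleted of rRNA, prepared with a small RNA library kit and sequenced as single reads of 75 bases. According to the study's methods reads were trimmed and aligned with TopHat2, and cuffdiff gave transcript abundances. The submitters' processing notes list STAR, Partek and the build mm9. The deposited gene coordinates, with each end lowered by 1, matched GENCODE M21 (GRCm38) for 19006 of 19642 genes. The counting program, its annotation and its use of strand are not given in the sources used here. The authors deposited 1 estimated count per gene and liver, not scaled to depth, and 52.2% of genes had decimals in some liver. Some exons overlap those of another gene on the other strand (Gclm, G6pdx, Gss, Keap1, Prdx2, Prdx5, Txnrd2 and Ftl1) or on the same strand (Gclm, Ftl1 and Tkt). Whether the counting separated the reads of these genes cannot be told from the counts.

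Estimated counts were rounded. filterByExpr removed low genes (minimum count 10, minimum total 15). TMM scaling and the quasi-likelihood test of edgeR 4.0.16 (R 4.3.3) followed, genotype being the only term, with Benjamini-Hochberg adjustment. cuffdiff needs reads and was not run. For single values an exact permutation test, two-sided, was run over livers on log2 CPM (prior count 2). RPKM used the exon length of GENCODE M21. Shared stretches were found with blastn 2.17.0 (75 bases, 95% identity), and 13 of the 39 genes had some. Genes sharing a stretch with Gclm, Txn2, Sod2 and Prdx1 held 45426.9, 42575.0, 19488.8 and 13198.1 counts. The rows of these 4 held 28334.7, 11260.0, 21756.3 and 72415.9 counts. What part of those reads came from the shared stretches was not tested. The scripts were tested on simulated data.

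Groups and replicate numbers come from the sample labels. The labels name no pairing of the livers, and the main test used none. The 39 genes, the pathway and marker lists and the rule for naming genes were chosen with earlier results of these data known. The rule gives values per liver for Nus1, Nfe2l2, Keap1, the Gpx genes, genes called or without overlap, and the gene of each role with the largest mean CPM. From the pathway lists it takes called genes and the 2 smallest p-values of each list, and Selenbp1, Selenop, Sod3 and other genes given by means were named after their values were seen. Alternatives were RLE scaling, library totals, no filter, at least 10 counts in every liver, DESeq2 1.42.0, limma-voom (limma 3.58.1), both replicate blocks, a prior count of 0.5 and each liver left out.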

Additional observations from a re-analysis of the deposited data

Results flagged for a closer look

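In 6 groups 1 liver stood far from the other 3 by Dixon's test, on the log2 CPM scale. In all 78 groups were tested, and chance alone gives about 3.9. Gpx3 in WT liver 4 was at 1.93, with the others at 2.48 to 2.54, and leaving this liver out lowered the log2 fold change of Gpx3 to 1.81. Gpx1 in N-LKO liver 2 was at 9.20 (others 9.501 to 9.54), and without this liver its log2 fold change was 0.25. Sod3 in N-LKO liver 3 was at 3.14 (others 2.69 to 2.71), and without it the log2 fold change was −0.63, again not called. Cat in N-LKO liver 4 was at 11.25 (others 11.13). Mgst3 in N-LKO liver 1 was at −0.80 (others 0.35 to 0.46). Nus1 in WT liver 1 was at 6.36 (others 6.49 to 6.502).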

How the results depend on the processing

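Gpx3 was called higher in all 17 alternatives, the added one included, with a log2 fold change of 1.81 to 2.01 and adjusted p up to 0.00298, and no other of the 39 genes was called in any. Counts over all genes moved more. The 148 calls (117 higher, 31 lower) became 371 (248 and 123) in DESeq2, 98 (19 lower) with at least 10 counts in every liver, and 71 to 173 (60 to 124 higher, 11 to 49 lower) with 1 liver left out, lowest without WT 4 and highest without N-LKO 2. The cause was not tested. The number of the 39 genes without overlap was 2 to 5 above and 1 to 6 below with 1 liver left out (6 without WT 1), and 2 below with library totals. Pathway genes called higher numbered 3 in DESeq2 (Dio1, Ero1lb and Selenbp2), 0 in limma-voom, 2 without a filter (Dio1 and Selenbp2) and 0 to 2 with 1 liver left out (0 in 6 of these fits, Dio1 without WT 3), and DESeq2 called 1 lower (Maoa).

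The sign turned in some alternative for 13 of the 38 tested genes, none of which was called. With library totals the log2 fold change was −0.027 for Gpx4, −0.032 for Gpx7, −0.0097 for Nfe2l2, −0.011 for Prdx1, −0.0047 for Taldo1 and −0.018 for Txnrd1. Without a filter it was −0.00396 for Gpx4 and −0.0063 for Gpx7, and with pseudogene copies added, an alternative chosen after seeing the data, −0.11 for Gpx4. With 1 liver left out the ranges were −0.20 to 7.1e-05 for Blvrb, −0.053 to 0.019 for Gclm, −0.11 to 0.081 for Gpx4, −0.11 to 0.17 for Gpx7, −0.063 to 0.31 for Hmox1, −0.050 to 0.10 for Nfe2l2, −0.40 to 0.19 for Osgin1, −0.0031 to 0.064 for Prdx1, −0.077 to 0.061 for Prdx2, −0.028 to 0.071 for Taldo1, −0.041 to 0.014 for Tkt, −0.027 to 0.050 for Txnrd1 and −0.14 to 0.018 for Txnrd2.

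Gpx3 minus Gpx8 changed by 0.99 with a prior count of 0.5 (exact permutation p = 0.0571) and by 0.81 to 1.27 with 1 liver left out (p = 0.0571 in 5 of these 8 fits, exact permutation test). The change was 1.57 to 1.88 against Gpx1, 1.74 to 2.07 against Gpx4 and 1.79 to 2.08 against Gpx7.

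Whether the replicate numbers pair the livers is not given in the labels. Deviations of same-numbered livers correlated by −0.085 to 0.063 for title numbers and −0.0094 to 0.17 for library numbers. Differently numbered livers were not set beside them, so a shared litter or batch was not tested. With a replicate block the calls numbered 131 (title number) and 113 (library number), and Gpx3 was called in both. With the pairing by title number as sign flips, the changes against Gpx1 (1.75), Gpx4 (1.92), Gpx7 (1.92) and Gpx8 (1.09) each had p = 0.125 (exact permutation test), the smallest that 4 pairs allow. Genes near the filter, such as Gpx7 and Gpx8 with 113 and 92 counts, are limited by depth.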
